A study of Mus musculus with 6 samples.

Results

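The genes described here are the 10 genes Alox5, Alox5ap, Ltc4s, Pla2g4a, Ptgs1, Ptgs2, Ptges, Ptgis, Ptgds and Hpgds, which encode the core enzymes of leukotriene and prostaglandin synthesis. They were taken by symbol from the 43432 genes listed in each count file, and 8 of the 10 passed the filter on low counts that left 12881 genes for testing. The series uses mice that lose Igf1 specifically in fibro-adipogenic progenitors (FAPs), which are mesenchymal progenitors residing in muscle, and asks whether IGF-I from FAPs acts on the FAPs themselves. RNA of samples labelled skeletal muscle was sequenced in 3 libraries with Control-D3 in the title and 3 with FID-D3 in the title, and the labels spell out neither FID nor D3. All 6 carry the same treatment text, in which mice got tamoxifen by intraperitoneal injection at an age of 12 to 13 weeks, 100 ug for each g of weight on each of 5 days, and then rested for 1 week or more, and muscle was frozen in OCT. The labels name neither the Cre line nor the Igf1 allele, nor the genotype of the controls, and they say that both sexes were used without giving the sex of a sample. Nothing in them ties a library to an animal, so the errors given here are those between libraries and may be technical in part.

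Arachidonic acid is released from membrane phospholipids by phospholipases and then enters separate branches. In the lipoxygenase branch, 5-lipoxygenase works with its membrane partner FLAP to make leukotriene A4, from which leukotriene B4 and the cysteinyl leukotrienes are formed. In the cyclooxygenase branch, the COX enzymes make prostaglandin H2, and terminal synthases turn it into prostaglandin E2, prostacyclin, prostaglandin D2 and other prostanoids. In injured muscle these lipids are known as signals made by macrophages and stromal cells, and prostaglandin E2 is known to act on muscle stem cells.

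Promoter sequences were available from RefSeq (GRCm38.p6) for 8 of the 10 genes. The 250 bases before the annotated start are shown for Hpgds and Ptgs2, the genes with the largest difference between groups in each direction among those 8, and for Ptgs1, the other cyclooxygenase. Capitals mark the letters GAGGAA, the core of sites bound by the myeloid factor PU.1, which was searched on both strands. The windows are chr6:65144731-65144980 (minus strand) for Hpgds, chr1:150099781-150100030 (plus strand) for Ptgs2 and chr2:36230176-36230425 (plus strand) for Ptgs1, each written 5′ to 3′ along the gene.
Hpgds: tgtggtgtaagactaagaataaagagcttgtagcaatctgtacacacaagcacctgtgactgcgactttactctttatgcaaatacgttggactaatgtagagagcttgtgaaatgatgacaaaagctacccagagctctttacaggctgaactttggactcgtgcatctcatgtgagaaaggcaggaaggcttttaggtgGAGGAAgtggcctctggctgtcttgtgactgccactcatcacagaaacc
Ptgs2: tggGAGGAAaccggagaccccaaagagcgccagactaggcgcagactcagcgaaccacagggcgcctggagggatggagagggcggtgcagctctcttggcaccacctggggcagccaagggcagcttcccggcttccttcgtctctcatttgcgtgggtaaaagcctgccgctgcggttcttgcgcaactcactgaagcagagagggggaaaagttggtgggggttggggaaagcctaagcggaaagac
Ptgs1: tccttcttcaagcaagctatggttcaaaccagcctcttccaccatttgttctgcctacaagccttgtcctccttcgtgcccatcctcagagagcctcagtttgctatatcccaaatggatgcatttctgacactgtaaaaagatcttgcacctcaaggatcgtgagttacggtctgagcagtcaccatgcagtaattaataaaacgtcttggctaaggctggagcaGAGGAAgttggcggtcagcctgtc

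GAGGAA or its reverse complement was present in the windows of 5 of the 8 genes, which were Hpgds, Ptgs2, Ptgs1, Ptges and Alox5. Of 27025 promoters of the same length, 23.1% held it. Counted from the annotated start, the match lay at -49 to -44 in Hpgds and at -24 to -19 in Ptgs1. In Ptgs2 it lay at the far end of the window, at -247 to -242. The E-box CACGTG and the CRE half-site TGACG were in none of the 8 genes' windows, against 6.05% and 17.9% of all promoters. TATAAA was present only at a second annotated start of Pla2g4a, against 13.0% of all promoters. There it was on the opposite strand, as TTTATA at -200 to -195. No overlaps between motifs occurred in these windows, and a match or its absence describes the letters of these windows only. Bases outside them, including those after the annotated start, were not searched.

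Gene counts summed to between 5201853 (control 1) and 10093757 (control 3) per library. Igf1 measured 60.4 to 134 CPM over the controls and 81.6 to 109 CPM over the FID libraries, with a log2 fold change of -0.010 (SE 0.28). Its whole-gene count thus cannot serve as a check of the labels, which are used as given. CPM are counts scaled to a common library total with TMM factors, and 3 counts, the most that a count of 0 allows, correspond to between 0.293 and 0.593 CPM. Mature myofibre markers were scarce for samples labelled skeletal muscle, with Ckm, the muscle creatine kinase, at no more than 1.19 CPM and the sum of 6 such markers between 5.37 and 50.04 CPM. Control 1 and FID 1 stood apart from the other libraries of their groups, control 1 with the highest endothelial marker sum (2938 CPM against 929 to 1433 CPM elsewhere) and FID 1 at 2.05 on the first principal component against 41.0 and 38.5 for the other FID libraries.

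The 10 genes were chosen by function with their FID and control counts and fold changes in view, so their differences are given as a description and support nothing by themselves. In the quasi-likelihood test of edgeR (p adjusted by Benjamini-Hochberg), 0 of the 8 tested genes passed at 0.05, as 0 (0%) of all 12881 genes did, and the smallest adjusted p over all genes was 0.109. At an unadjusted p under 0.05 in that test there were 2 of the 8, both higher in FID, beside 19% of all genes, of which 9.81% were higher and 9.21% lower. The same 2 genes, Alox5ap and Hpgds, were the ones whose groups did not overlap, beside 25.3% of all genes tested. DESeq2 called these 2 as well, beside 5.78% of the genes it adjusted. The median log2 fold change of the 8 genes was 0.082, beside -0.019 over all genes tested.

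**Figure D1:**
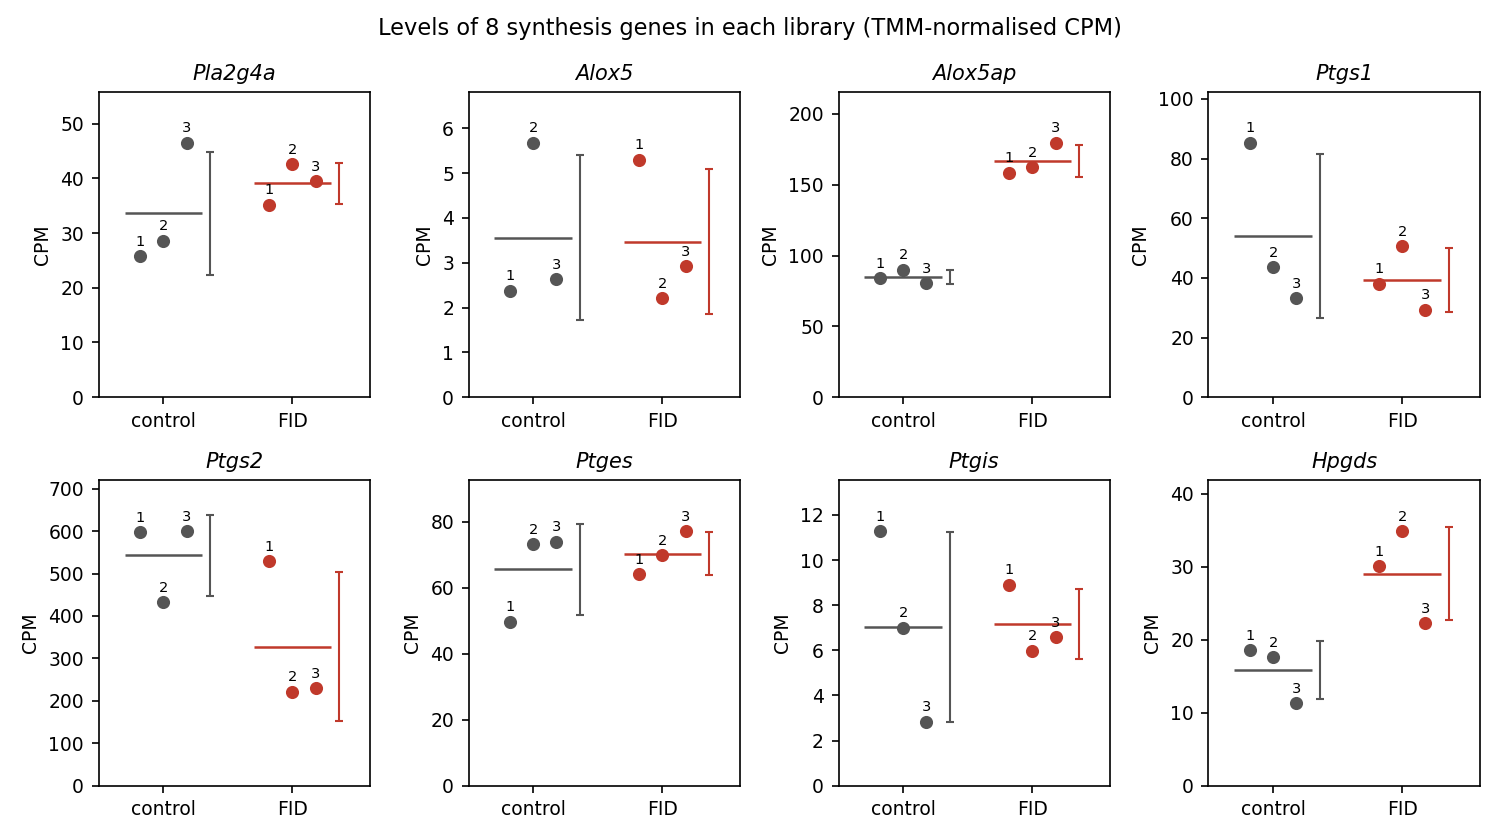
Each panel plots 1 gene, with TMM-normalised CPM on the y axis from 0 and a point for each library (digits give the library number). Horizontal lines are group means and bars SD over 3 libraries. The groups separate for Alox5ap and Hpgds, and FID 1 lies among the controls for Ptgs2.

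Pla2g4a encodes cytosolic phospholipase A2, which cuts arachidonic acid from membranes (chromosome 1, 149829618 to 149961290, minus strand, mm10). It measured 25.7, 28.6 and 46.5 CPM across control 1 to 3 and 35.2, 42.6 and 39.4 CPM across FID 1 to 3. The FID libraries lay inside the control range, with control 3 the highest of all. The log2 fold change was 0.21 (SE 0.23), and with 1 library left out it ranged from 0.056 without control 1 to 0.54 without control 3.

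Alox5ap encodes FLAP, the membrane protein that presents arachidonic acid to 5-lipoxygenase (chromosome 5, 149264767 to 149288153, plus strand). It measured 83.9, 89.9 and 80.3 CPM across control 1 to 3 and 158, 162 and 180 CPM across FID 1 to 3. All 3 FID libraries were above all 3 control libraries, and the spread inside each group was small beside the gap. The control libraries averaged 84.7 ± 4.88 CPM and the FID libraries 167 ± 11.2 CPM (SD, n = 3 each), a 1.97-fold higher level in FID (log2 fold change 0.98, SE 0.12). With each library left out in turn the log2 fold change stayed between 0.92 and 1.03. Without FID 1 the gene passed edgeR's adjusted test, beside 2.73% of the genes tested there.

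Alox5 encodes 5-lipoxygenase itself (chromosome 6, 116410077 to 116461178, minus strand). It measured 2.37, 5.68 and 2.64 CPM across control 1 to 3 and 5.30, 2.20 and 2.92 CPM across FID 1 to 3. The groups overlapped, with 1 library of each group high. The log2 fold change was -0.067 (SE 0.47) and took either sign with 1 library left out, from -0.48 without FID 1 to 0.46 without control 2. Within the leukotriene branch, Alox5ap therefore differed between the labelled groups by more than its spread and Alox5 did not, but the difference between the 2 genes was not tested.

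Ltc4s, the synthase that joins glutathione to leukotriene A4 (chromosome 11, 50236461 to 50238616, minus strand), had 4, 4 and 0 counts in control 1, 2 and 3 and 4, 3 and 1 counts in FID 1, 2 and 3. No difference was detectable at this depth. An antisense gene, Gm26542, covers 26.4% of the exon bases of Ltc4s, and the strand setting of the counting is not given in the sources used here. Gm26542 itself had at most 3 counts in a library, though reads ambiguous between the genes would be in neither count. Annotated genes on the opposite strand also cover 13.3% of the exon bases of Alox5ap (Gm19719), 6.08% of those of Ptgis (1110018N20Rik) and 3.81% of those of Ptgs1 (Gm43621). Of these, Gm19719 and Gm43621 are not among the genes counted, so no read could be ambiguous with them, and 1110018N20Rik is.

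Ptgs2 encodes COX-2, the inducible cyclooxygenase (chromosome 1, 150100031 to 150108227, plus strand). It measured 598, 432 and 600 CPM across control 1 to 3 and 530, 221 and 230 CPM across FID 1 to 3. FID 2 and FID 3 were below every control, whereas FID 1 lay inside the control range. The control libraries averaged 543 ± 96.2 CPM and the FID libraries 327 ± 176 CPM (SD, n = 3 each), with a log2 fold change of -0.73 (SE 0.35). Without FID 1 the log2 fold change was -1.25 and passed edgeR's adjusted test (adjusted p 0.0371), beside 2.73% of the genes tested there. With any other library left out it stayed between -0.87 and -0.51 and did not pass.

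Ptgs1 encodes COX-1, the cyclooxygenase that many cells make constitutively (chromosome 2, 36230426 to 36252272, plus strand). It measured 85.2, 43.5 and 33.2 CPM across control 1 to 3 and 38.0, 50.6 and 29.4 CPM across FID 1 to 3. Control 1 stood far above the other 5 libraries, which overlapped. The log2 fold change of -0.44 (SE 0.36) rested on that library and was 0.035 without it. Control 1 also had the highest pericyte and smooth muscle marker sum, 2293 CPM against 1041 to 1338 CPM elsewhere, and the highest endothelial sum, and the part of these cells in the Ptgs1 level was not tested.

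Hpgds encodes the haematopoietic prostaglandin D synthase, known from macrophages and mast cells (chromosome 6, 65117293 to 65144908, minus strand). It measured 18.6, 17.6 and 11.3 CPM across control 1 to 3 and 30.1, 34.9 and 22.3 CPM across FID 1 to 3. All FID libraries lay above all controls, with the gap between control 1 and FID 3 smaller than the spread inside either group. The control libraries averaged 15.9 ± 3.95 CPM and the FID libraries 29.1 ± 6.36 CPM (SD, n = 3 each), 1.83-fold higher in FID (log2 fold change 0.88, SE 0.25). It ranged from 0.70 without control 3 to 1.04 without FID 3.

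Ptgds, the lipocalin-type enzyme that makes the same prostaglandin D2, had 2 counts in FID 2 and 0 in the other 5 libraries (chromosome 2, 25466709 to 25470046, minus strand). Of the enzymes that make prostaglandin D2, these libraries therefore held transcripts of Hpgds and at most traces of Ptgds. The prostaglandin D2 receptors were also near 0, with no count of Ptgdr in any library and at most 2 counts of Ptgdr2.

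Ptges encodes the inducible microsomal prostaglandin E synthase that often works with COX-2 (chromosome 2, 30889471 to 30929863, minus strand). It measured 49.6, 73.1 and 73.9 CPM across control 1 to 3 and 64.1, 69.7 and 77.0 CPM across FID 1 to 3. The groups overlapped, with control 1 the lowest library and FID 3 the highest. The log2 fold change was 0.097 (SE 0.18), and -0.066 without control 1.

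Ptgis encodes prostacyclin synthase (chromosome 2, 167191805 to 167240604, minus strand). It measured 11.3, 6.99 and 2.83 CPM across control 1 to 3 and 8.90, 5.98 and 6.59 CPM across FID 1 to 3. Control libraries held both the highest and the lowest value. The log2 fold change of 0.067 (SE 0.46) was -0.32 without control 3 and 0.54 without control 1.

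**Figure D2:**
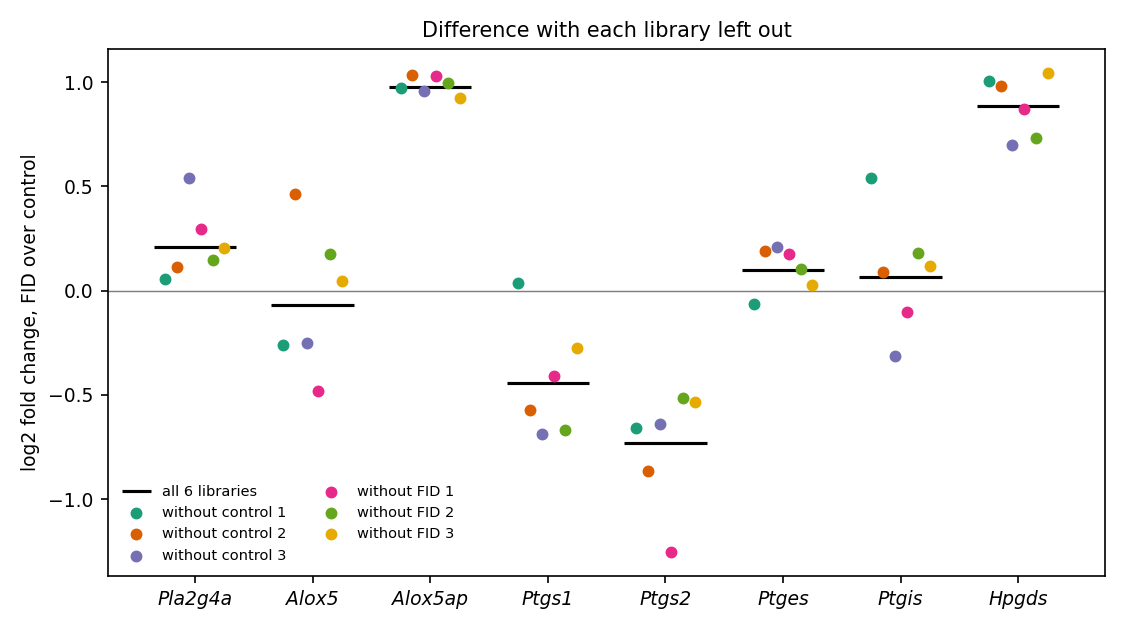
The y axis gives the log2 fold change of FID over control for each of 8 genes, with a black line for the fit on 6 libraries and a coloured point for each fit with 1 library left out. Alox5ap stays between 0.92 and 1.03, Ptgs2 moves to -1.25 without FID 1, and the points of Alox5, Ptgs1, Ptges and Ptgis fall on both sides of 0.

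Levels of different genes were compared per exon length, as counts per kilobase of exon scaled to the same total in every library (TPM). Ptgs2 had the highest mean over the 6 libraries at 313 TPM (145 to 447), followed by Alox5ap at 284 (193 to 398). The ranges of these 2 overlapped, and with the longest transcript as length their order turned, at 245 for Ptgs2 and 246 for Alox5ap. Within a library, Ptgs2 over Alox5ap per exon length was 2.21, 1.49 and 2.32 across control 1 to 3. Across FID 1 to 3 it was 1.04, 0.42 and 0.40. Every library held more of either than of any other gene of the 10, since Ptges, the third, ranged from 43.0 to 64.2 TPM and Ptgs1 from 23.8 to 74.8 TPM.

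Among the less abundant genes, Pla2g4a ranged from 13.7 to 24.8, Hpgds from 6.02 to 16.3 and Ptgis from 3.77 to 14.96 TPM. The range of each overlapped that of its neighbour in that order, but within a library Pla2g4a exceeded Hpgds in all 6, 1.17-fold to 4.13-fold. Alox5 ranged from 1.61 to 4.49 TPM, so the transcript of FLAP exceeded that of its enzyme partner 45.8-fold (control 2) to 213-fold (FID 2) in every library. The level of Ptgs2 exceeded that of Ptgs1 in all 6 libraries, between 3.71-fold (FID 2) and 15.3-fold (control 3) per length. That ratio averaged 9.90 ± 4.85 over the controls and 7.39 ± 4.11 over the FID libraries (SD, n = 3 each), a difference within the spread.

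**Figure D3:**
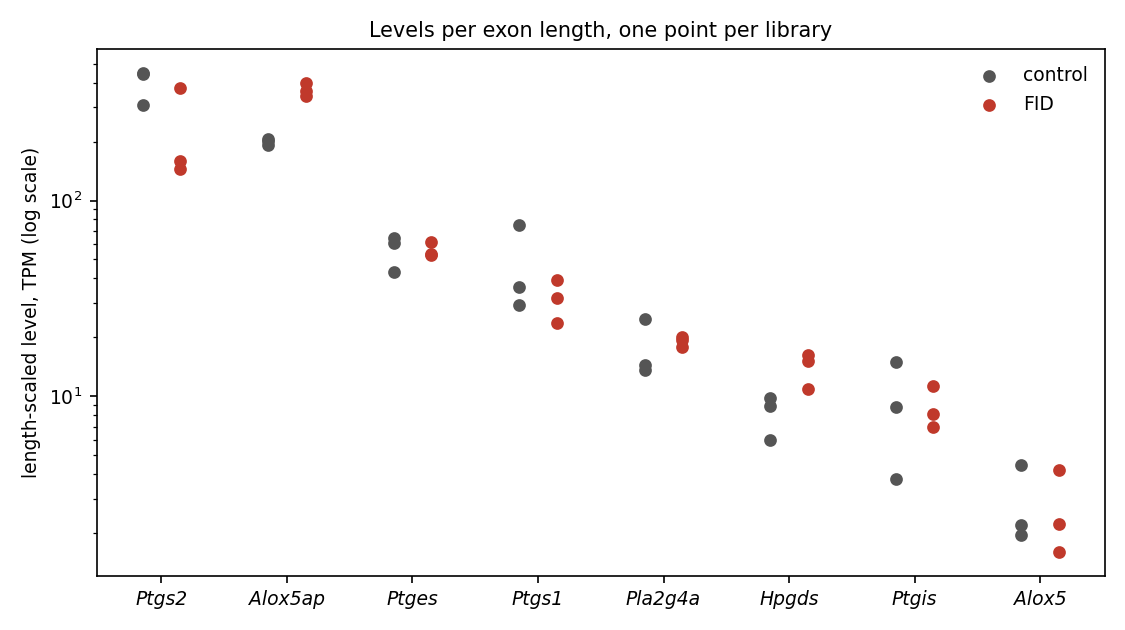
Points give the length-scaled level (TPM) in each library on a log axis, with control in grey and FID in red, and genes ordered by their mean over 6 libraries. Ptgs2 and Alox5ap lie above the other genes, and Alox5 is the lowest of the 8.

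The macrophage marker sum was higher in the same libraries as Alox5ap and Hpgds. All 15 markers of that list had counts and 14 had a log2 fold change above 0, as 47.8% of all genes tested did, with a median of 0.72 over the list. The list was mixed. In 6 of the 15 (40%) every FID library lay above every control, beside 13% of all genes tested. Mrc1 (0.040) and Cd14 (0.048) had log2 fold changes near 0, and Cd163 had -0.42. Their summed level was between 3775 and 6197 CPM in control and between 7956 and 10737 CPM in FID. FAP and fibroblast markers had the opposite sign, 11 of 12 with a log2 fold change below 0, where 47.8% of all genes tested were above 0. In 7 of the 12 (58.3%) every FID library lay below every control, beside 12.3% of all genes tested. The sum of these markers lay between 61006 and 68923 CPM in control and between 31517 and 45849 CPM in FID. Most of that sum was collagen transcript, with Col1a1, Col1a2 and Col3a1 at 23312, 16043 and 17670 CPM in control 1. In FID 3 these measured 10260, 10188 and 7974 CPM. Their log2 fold changes were -0.89, -0.73 and -0.83, and those of the other markers ranged from -1.05 (Pi16) to 0.081 (Dpp4). In bulk RNA, more cells of a type and more RNA of a gene per cell cannot be told apart.

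Set against the macrophage sum of its own library, Hpgds was nearly level. Per 1000 CPM of macrophage markers it measured 3.00, 2.95 and 3.00 CPM across control 1 to 3 and 2.80, 3.35 and 2.80 CPM across FID 1 to 3. The group means were 2.98 ± 0.0278 and 2.98 ± 0.318 CPM (SD, n = 3 each), with a log2 difference of -0.0057. These values hold for this sum of markers, of which Lyz2 alone gave 4302 of 10737 CPM in FID 1. With Lyz2, Ctss and Lgals3 left out of the sum, the log2 difference was 0.090 for Hpgds and 0.18 for Alox5ap. Alox5ap measured 13.5, 15.05 and 21.3 CPM per 1000 across control 1 to 3 and 14.8, 15.6 and 22.6 CPM per 1000 across FID 1 to 3. These groups overlapped, and the log2 difference on the full marker sum was 0.088 where that of the plain level was 0.98. Whether macrophages set the level of either gene was not tested.

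Ptgs2 behaved otherwise on this scale, but not alone. Per 1000 CPM of macrophage markers Ptgs2 measured 96.4, 72.3 and 159 CPM across control 1 to 3. Across FID 1 to 3 it measured 49.3, 21.2 and 28.9 CPM, with no overlap and a log2 difference of -1.73. Ptgs1 was also lower in FID on this scale without overlap (-1.26). Pla2g4a (-0.63), Alox5 (-0.91), Ptges (-0.77) and Ptgis (-0.67) had log2 differences below 0 with overlapping groups. A ratio per 1000 CPM of FAP and fibroblast markers was added after the values were seen. On it Ptgs2 measured 9.72, 6.27 and 9.83 CPM in control and 11.6, 6.66 and 7.31 CPM in FID. The means on the latter scale were 8.61 ± 2.03 and 8.51 ± 2.66 CPM (SD, n = 3 each), and FID 1 was the highest library there. Alox5ap and Hpgds had log2 differences of 1.79 and 1.69 per FAP marker CPM, without overlap of the groups. The same held for Pla2g4a (1.07) and Ptges (0.93), whose plain levels overlapped. Ptgis (1.03), Alox5 (0.79) and Ptgs1 (0.44) were above 0 on this scale with overlap, so a higher ratio was not particular to Alox5ap and Hpgds. The denominators themselves differed between the groups, and the FAP sum was mostly collagen transcript, so it is no measure of FAP number. A ratio thus shows unequal change of its 2 parts and not which part differed.

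**Figure D4:**
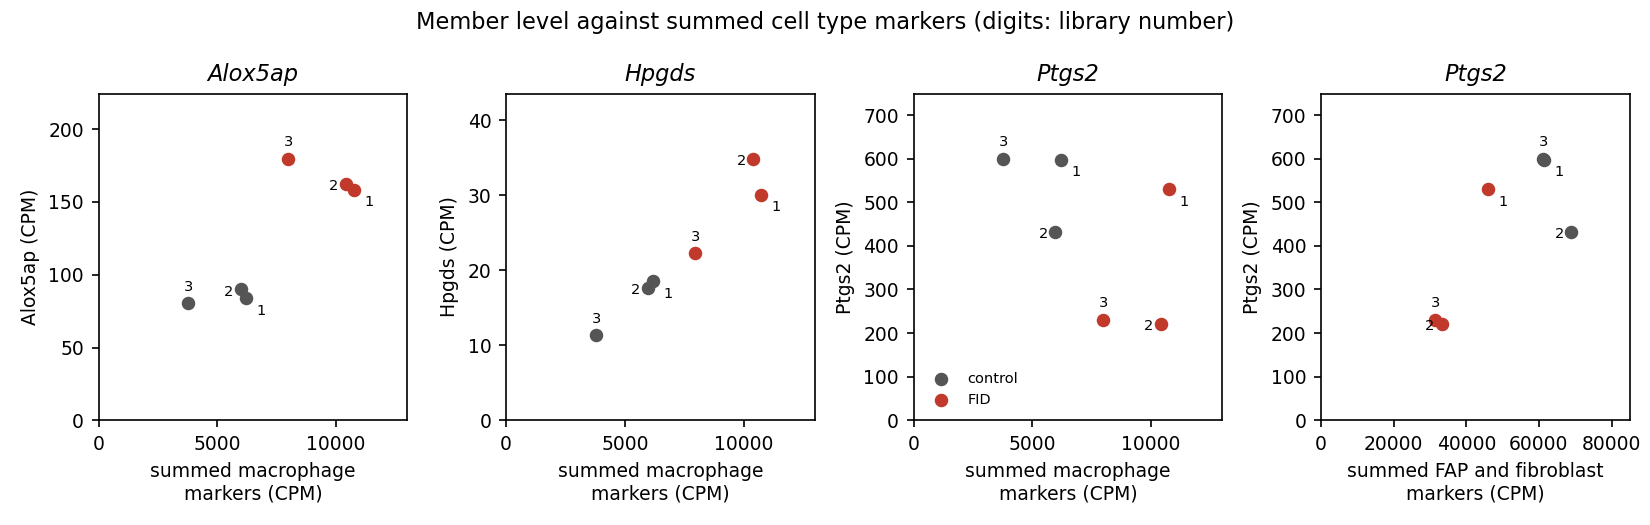
The first 3 panels plot the CPM of Alox5ap, Hpgds and Ptgs2 in each library against the summed CPM of 15 macrophage markers, and the last plots Ptgs2 against the summed CPM of 12 FAP and fibroblast markers, with control in grey and FID in red. Hpgds lies close to a line through the origin, at 2.80 to 3.35 CPM per 1000 CPM of macrophage markers, and FID 1 has the highest FAP sum and the highest Ptgs2 of the FID libraries.

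Mast cells, which also make Hpgds, left protease transcripts that were too low to pass the filter, so no difference between the groups was tested. Cma1, a chymase, measured 0, 0.203 and 0.293 CPM across control 1 to 3 and 0.563, 3.36 and 0.648 CPM across FID 1 to 3. Mcpt4, another chymase, measured 0, 0.203 and 0.391 CPM in control and 0.676, 3.88 and 1.19 CPM in FID. Tpsb2, a tryptase, measured 0.198, 0.203 and 0.195 CPM in control and 0.789, 2.94 and 0.540 CPM in FID. These values are near the floor. A count of 0 in control 1 allows up to 0.593 CPM, above the 0.563 CPM of Cma1 in FID 1. For these 3 genes every FID library lay above every control, which held for 13% of the genes that passed the filter. FID 2, the highest library for Hpgds, was also the highest for each of the 3. Cpa3, a carboxypeptidase, was likewise highest in FID 2 at 3.36 CPM, with the other 5 libraries between 0.304 and 0.901 CPM and the groups overlapping. The part of mast cells in the Hpgds level was not tested. Ms4a2 and Fcer1a stayed at or below 0.108 CPM, and the sum of 9 mast cell markers was between 18.5 and 47.1 CPM in control and between 22.1 and 55.8 CPM in FID. Most of that sum came from Kit and Hdc, which other cells also make and which were the only 2 of these markers to pass the filter. Kit went the other way from the proteases, at 16.6, 11.4 and 8.10 CPM in control and 7.78, 4.62 and 5.83 CPM in FID, without overlap. Hdc overlapped between the groups. Of 6 eosinophil markers, Epx, Ear6 and Il5ra were at 0 in all libraries and the sum stayed at or below 2.25 CPM. The sum of 10 neutrophil markers was 41.5 to 48.2 CPM in control and 56.5 to 90.6 CPM in FID, and Ly6g, Camp and Ngp stayed at or below 0.293 CPM. Csf3r was the largest part of that sum, at 33.0, 24.5 and 15.1 CPM in control and 30.5, 54.5 and 39.8 CPM in FID, with overlap. S100a8 and S100a9 were highest in control 3, at 13.2 and 8.89 CPM. Of the 5 neutrophil markers that passed the filter, 1 (20%), Mmp8, was higher in FID without overlap, beside 13% of all genes tested. The part of neutrophils in the Alox5ap level was not tested. Platelet markers, which bear on Ptgs1, summed to 78.2 to 108 CPM in control and 83.3 to 171 CPM in FID, with FID 1 the highest. Most of that sum was Pf4, at 159 of 171 CPM in FID 1, so it rests on that gene and is no measure of platelets. Gp9, Gp1ba and Treml1 stayed at or below 1.19 CPM, and Ppbp was highest in FID 3 at 11.3 CPM. The part of platelets in the Ptgs1 level was not tested.

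The other genes of the pathway were taken from a list by function, 61 with a row in the files and 44 left after the filter. Their median log2 fold change was 0.16, with 29 above and 15 below 0, where 47.8% of all genes tested were above 0. In edgeR's test 0 of the 44 passed the adjusted threshold, and 6 higher and 2 lower (18.2%) had an unadjusted p under 0.05, close to the 19% of all genes. The groups did not overlap in 12 of the 44 (27.3%), beside 25.3% of all genes. DESeq2 called Dpep2 and Cotl1 higher and Ptgfrn lower. In the paragraphs on these genes, a value followed by an SE is a log2 fold change of FID over control, and levels are listed in the order of library 1 to 3.

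In the supply of arachidonic acid, 10 of 16 genes were tested. Pla2g2e, a secreted phospholipase, had few reads and measured 0.396, 0.405 and 0.586 CPM in control against 1.46, 2.73 and 1.40 CPM in FID, with 1.95 on the log2 scale (SE 0.46, adjusted p of 0.137 by edgeR). Pla2g6, a calcium-independent phospholipase, had -0.33 (SE 0.19). Mgll, a lipase that frees arachidonic acid from an endocannabinoid, had -0.90 (SE 0.39), and -0.47 without control 1, the highest of its control libraries, which ranged from 32.5 to 111 CPM. Anxa1, the most abundant of these genes and known to restrain phospholipase A2, had 0.32 (SE 0.23) with overlapping groups, and ranged from 0.10 without control 1 to 0.58 without control 3.

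All 6 other prostanoid synthases had a log2 fold change above 0, with a median of 0.23. Tbxas1, thromboxane synthase, measured 27.7, 27.4 and 11.5 CPM in control and 39.2, 33.5 and 33.1 CPM in FID, without overlap. Akr1b3, an aldose reductase that can make prostaglandin F2 alpha, had 0.30 (SE 0.13), and Fam213b, another prostaglandin F synthase, 0.46 (SE 0.23). Ptges3, the constitutive cytosolic prostaglandin E synthase and chaperone partner, had 0.043 (SE 0.13), and lay below 0 without control 1 or without FID 3.

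Among 9 tested genes around leukotrienes and other lipoxygenases, 6 lay above 0. Dpep2, a dipeptidase that turns leukotriene D4 into E4, measured 27.5, 16.7 and 16.2 CPM in control and 32.7, 40.3 and 33.8 CPM in FID. Its log2 fold change was 0.84 (SE 0.23), with an adjusted p of 0.150 by edgeR and of 0.0356 by DESeq2. Cotl1, an actin-binding protein that also binds 5-lipoxygenase, measured 374, 401 and 280 CPM in control and 486, 585 and 531 CPM in FID (0.60, SE 0.17, edgeR adjusted p 0.158). In both genes every FID library exceeded every control. Mgst3, a glutathione transferase able to make leukotriene C4, had 0.38 (SE 0.16). Lta4h, which makes leukotriene B4, averaged 88.7 ± 4.86 CPM over the controls and 82.7 ± 10.98 CPM over the FID libraries (SD, n = 3 each), and was named after its values were seen.

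Of 9 transport and breakdown genes tested, 6 lay above 0 and 1 did not overlap between groups. Ptgr2, a reductase of prostaglandin metabolites, had 0.27 (SE 0.12) without overlap of the groups. Cyp4f18, which oxidises leukotriene B4, and Hpgd, the dehydrogenase that inactivates prostaglandin E2, had 0.60 (SE 0.33) and 0.62 (SE 0.41) with overlap. The value of Hpgd was 0.11 without FID 3. The uptake transporter Slco2a1 was highest in control 1 at 204 CPM, and its log2 fold change of -0.37 (SE 0.35) was 0.13 without that library.

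Of 8 tested genes around prostanoid receptors, 3 lay above and 5 below 0. Ptger4, a prostaglandin E2 receptor, measured 47.9, 29.2 and 32.4 CPM in control and 26.9, 20.9 and 18.7 CPM in FID, with -0.71 on the log2 scale (SE 0.23, adjusted p of 0.183 by edgeR). Ptger2, another receptor for the same ligand, measured 0.791, 3.24 and 2.73 CPM in control and 4.62, 4.72 and 4.65 CPM in FID (0.97, SE 0.42, edgeR adjusted p 0.268). The 2 receptors thus had opposite signs and neither passed edgeR's adjusted test, and Ptger2 had 0.64 without control 1. Ptgfrn, which binds and restrains the prostaglandin F receptor, had -0.50 (SE 0.13, edgeR adjusted p 0.140, DESeq2 adjusted p 0.0205). Among leukotriene receptors, Cysltr1, for the cysteinyl leukotrienes, had 1.04 (SE 0.37, edgeR adjusted p 0.204) with FID 2 the highest at 30.3 CPM, and Ltb4r1, for leukotriene B4, had 0.40 (SE 0.40) and -0.087 without FID 3.

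**Figure D5:**
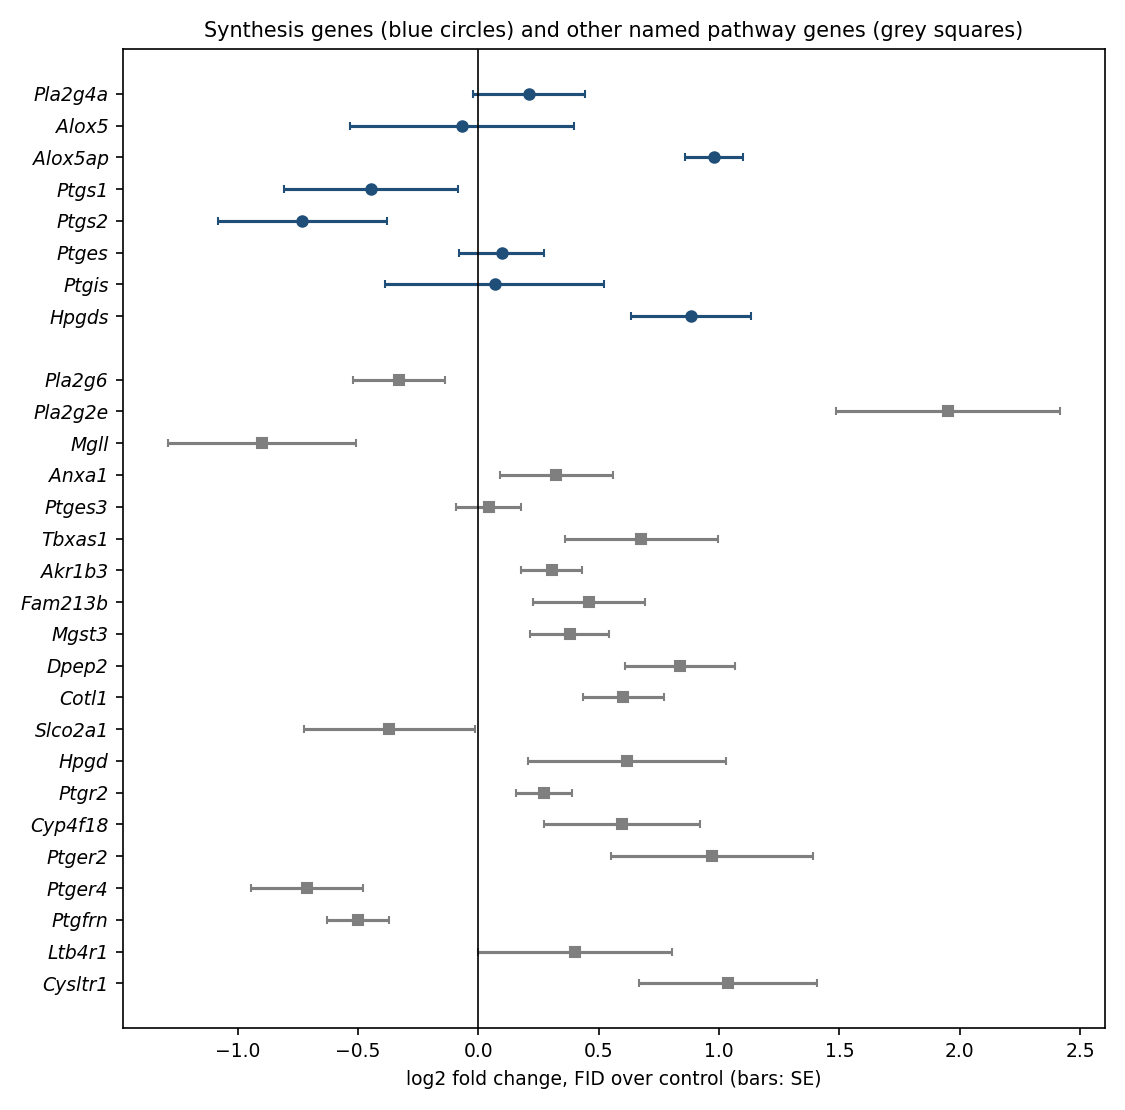
The x axis gives the log2 fold change of FID over control with bars for the SE, blue circles for the 8 tested synthesis genes and grey squares for the pathway genes named by rule. Alox5ap (0.98) and Hpgds (0.88) are the highest of the blue circles and Ptgs2 (-0.73) the lowest.

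The gene most like each of the 8 was taken as the 1 with the smallest root mean square difference of centred log2(CPM + 1) over the 6 libraries, among genes with a mean of at least 10 CPM, and for Alox5ap the 2 nearest were taken. These were Clec4a2, a myeloid lectin receptor (0.12), and Itgb2, the leukocyte integrin beta chain (0.12). Hpgds was nearest to Adap1 (0.063), Alox5 to the macrophage mannose receptor gene Mrc1 (0.10) and Ptgis to the cytokine gene Il10 (0.097). Ptgs2 was nearest to the adhesion gene Chl1 (0.11), Ptgs1 to Rasgrf2 (0.039), Ptges to Gorasp1 (0.034) and Pla2g4a to C1d (0.076). With so many genes searched over only 6 libraries, close matches arise in any profile, and these are descriptions.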

How the data were processed

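The authors deposited raw counts of reads per Ensembl gene for 6 mouse libraries. Per the labels' protocols, 1000 ng of RNA with an integrity number over 5.6 went into each library and the kit kept the strand. The submitters' processing notes list mm10 as build and name DESeq2, HTSeq, STAR, cutadapt, Bowtie2 2.5.4 and SAMtools without saying what each did. No source used here gives the annotation release or the strand setting of the counting. Entries that name no gene (9.60% to 10.9% of each file) were left out. Symbols matched 97.8% of genes. Coordinates and exon lengths came from GENCODE M21 (GRCm38).

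Genes were filtered with filterByExpr (minimum count 10, total 15), scaled with TMM and tested with edgeR 4.0.16 (quasi-likelihood, two-sided, group only, Benjamini-Hochberg at 0.05), after a test on simulated data. SE were derived from the log2 fold change and the F statistic. Alternatives were DESeq2 1.42.0, limma-voom (limma 3.58.1), RLE factors, no filter, each library left out and a replicate block. Libraries of a group differed far beyond sampling noise (chi-square per degree of freedom 14.1 to 46.0). Floors cover counting error only. The 10 genes, the pathway and marker lists and the tests were chosen with earlier results of these data known. Named pathway genes are, per list, the 3 with the smallest p and the most abundant.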

Additional observations from a re-analysis of the deposited data

How the results depend on the processing

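No gene passed in edgeR's test on all 6 libraries, where 2449 had an unadjusted p under 0.05. DESeq2 called 760 genes, edgeR with no filter on low counts called 269, and limma-voom, RLE factors and the replicate block called 0. With each library left out in turn the count ranged from 0 to 359, with 359 without FID 1 and 3 without control 1. The median log2 fold change of the synthesis genes ranged from -0.021 to 0.16 and that of the other pathway genes from 0.088 to 0.22 with 1 library left out. Relative to macrophage markers, the log2 difference ranged from -0.10 to 0.28 for Alox5ap and from -0.092 to 0.038 for Hpgds with 1 library left out. Among the 8 tested synthesis genes and the pathway genes named by rule, the log2 fold changes that took either sign with 1 library left out were those of Alox5 (-0.48 to 0.46), Ptgs1 (-0.69 to 0.035), Ptges (-0.066 to 0.21), Ptgis (-0.32 to 0.54), Ltb4r1 (-0.087 to 0.71), Ptges3 (-0.042 to 0.14) and Slco2a1 (-0.61 to 0.13). The cause was not tested. The replicate numbers of the titles were not taken as pairs in the main test. Same-numbered deviations from the group means correlated at 0.012, -0.30 and 0.32, and so few libraries cannot settle whether they are pairs. Under the replicate block 0 genes were called. Ltc4s and Ptgds had too few counts for any difference to be detectable.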
